A study of Mus musculus with 16 samples.

Results

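The nuclear-encoded subunits of the respiratory chain were examined in the cortical bone of mice after hindlimb unloading (HLU). Members were taken by gene symbol, as the Nduf, Sdh, Uqcr, Cox and Atp5 genes that encode subunits of complexes I to V, with symbols marked -ps left out. This gave 31 of the 36829 listed features. By the start of the symbol, 15 were assigned to complex I, 1 to complex II (Sdhd), 1 to complex III (Uqcrh), 8 to complex IV and 6 to complex V. The list holds a part of the chain, because 3887 of the listed features carry the single symbol Rnf135 and could not be assigned to a gene. Ndufab1, Cox4i1, Cox4i2 and Cycs are listed but lie outside the symbol pattern, and Atp5l2 is annotated as a pseudogene of Atp5l. Of the 31 members, 29 averaged 0.5 RPKM or more across the 16 mice and were tested, and Cox7b2 and Cox8c were below that level.

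The respiratory chain sits in the inner mitochondrial membrane. Complexes I and II pass electrons from NADH and succinate to ubiquinone, complex III passes them on to cytochrome c, and complex IV hands them to oxygen. The proton gradient that complexes I, III and IV build drives ATP synthesis by complex V. The mitochondrial genome encodes a few core subunits of complexes I, III, IV and V and none of complex II. All other subunits are encoded in the nucleus, and several exist as isoforms, among them the heart and muscle forms Cox6a2, Cox7a1 and Cox8b. In bone, osteoblasts and osteoclasts rely on these complexes to differing degrees, and mature red cells lack mitochondria while their precursors hold them.

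All 16 mice were C57Bl/6 females of 11 weeks. Of these, 8 had their hindlimbs unloaded for 7 days and 8 controls bore weight normally. Both bone ends were cut off and the marrow was flushed out before RNA was extracted, and each mouse gave 1 library. Values are RPKM, in which reads are divided by the length of the gene and by the size of the library. HLU and control were compared by limma on log2(RPKM + 0.1) across the 16973 features that averaged 0.5 RPKM or more, so fold changes are on that scale and understate the change of low genes.

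Between 7067512 and 21363584 reads stood behind a library, so that 3 reads on a gene of 1 kb, taken here as the detection floor, were worth 0.140 to 0.424 RPKM. Osteoblast and osteocyte markers (12 of 12 listed) were all present and summed to 993 to 3010 RPKM per mouse. Neutrophil markers (10 of 14 listed) still summed to 12612 to 44953 RPKM. Erythroid markers (13 of 16 listed) ranged from 3210 to 8895 RPKM in control and from 1741 to 4664 RPKM in HLU, a log2 difference of -0.66 (two-sided exact permutation test, p = 0.031). Adipocyte markers (7 of 8 listed) summed to 408 to 781 RPKM in control and to 487 to 828 RPKM in HLU (log2 difference 0.32, exact permutation p = 0.046), and those of proliferating cells (6 of 6 listed) to 241 to 579 RPKM and to 124 to 500 RPKM (log2 difference -0.48, exact permutation p = 0.12). Of the muscle markers only Myh7, Tnnt1 and Tnni1 of 28 are listed, and their sum ranged from 3.46 to 140 RPKM in control and from 5.27 to 198 RPKM in HLU (log2 difference -0.40, exact permutation p = 0.68). A sum of 10 listed muscle genes, chosen after values were seen, had a difference of the other sign (log2 difference 0.19, exact permutation p = 0.74). No listed marker of these lists was at 0 in all mice. In such bulk samples, fewer cells of a type and less RNA per cell cannot be told apart.

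Control 1, Control 2, HLU 1, HLU 2 and HLU 3 stood apart from the other libraries in a measure that uses no member: mt-Atp6 was 0.0439% to 0.0693% of mt-Co1 in these 5 and 0.153% to 0.255% in the other 11. Libraries also differed in how strongly transcript abundance followed GC content. This slope ran from -0.62 (HLU 4) to 0.41 (Control 7) on the log2 scale per 10 points of GC, with similar ranges in both groups (-0.51 to 0.41 in control, -0.62 to 0.26 in HLU).

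Few subunit transcripts passed the test of HLU against control. Of the 29 members tested, 1 was lower in HLU (Cox6a1) and 0 were higher at an unadjusted limma p under 0.05 with a change of at least 1.2-fold. Across all features, 4.76% were lower and 1.11% were higher by the same rule. No member reached an adjusted p under 0.1 (lowest adjusted p among members 0.744, limma with Benjamini-Hochberg adjustment), nor did any other feature (0%), and 0 members did with voom on the recovered reads. The groups overlapped in all 29. The median log2 fold change of the members was -0.06, beside -0.10 over all features, and after median-of-ratios scaling these medians were 0.03 and -0.01. Of the 29 members, 21 had a fold change smaller than 0.15 on the log2 scale in either direction. Standard errors ranged from 0.09 for Atp5h to 0.52 for Atp5d, so that the same small change was measured with very different precision from gene to gene.

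**Figure D1:**
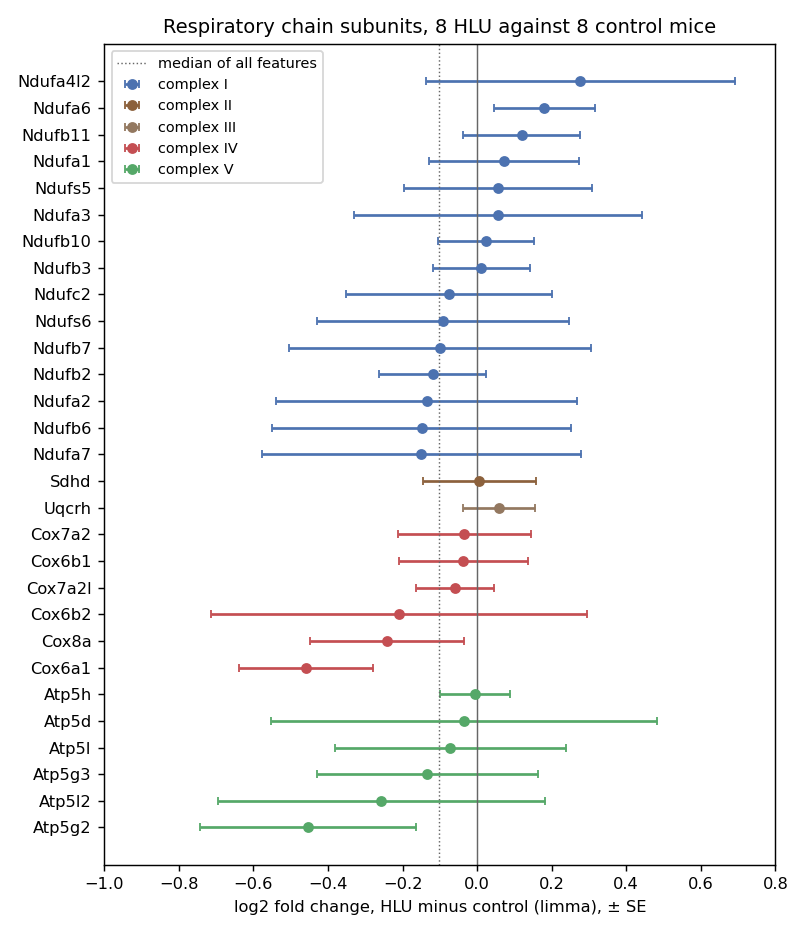
Log2 fold change (HLU minus control, x axis) of the 29 members tested, as points with standard errors from limma, grouped by complex and ordered by size (8 mice a group). The dotted line is the median of all 16973 features (-0.10); Cox6a1 lies at -0.46 and Ndufa4l2 at 0.28, and most members lie near 0.

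Complex I members were spread about 0, with 7 of 15 below and a median log2 fold change of 0.01. Ndufa6 and Ndufa1, accessory subunits of the enzyme, had the highest levels of the complex. Ndufa6 ranged from 112 to 165 RPKM in control (median 138) and from 109 to 211 RPKM in HLU (median 163). Although the highest values were in HLU 4 and HLU 7, the groups overlapped and the log2 fold change of 0.18 (SE 0.13) did not pass the test (limma p = 0.20, adjusted p = 0.763; exact permutation p = 0.19). Ndufa1 ranged from 82.7 to 190 RPKM in control (median 155) and from 89.0 to 195 RPKM in HLU (median 159). Both groups covered the same range for this gene (log2 fold change 0.07, SE 0.20).

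Ndufa4l2, a hypoxia-inducible relative of the complex IV subunit Ndufa4, is counted under complex I by its symbol only. It had the highest fold change of the members so assigned, at 0.28 (SE 0.41; limma adjusted p = 0.867). Its level was low, with 0.809 to 4.62 RPKM in control (median 2.17) and 1.14 to 5.40 RPKM in HLU (median 2.48). HLU 1, HLU 7 and Control 5 were the highest mice, and 4 of 8 HLU mice were above the control median. Ndufa7, an accessory subunit, had the lowest fold change at -0.15 (SE 0.43). It ranged from 1.74 to 13.04 RPKM in control (median 6.51) and from 2.82 to 11.0 RPKM in HLU (median 4.94), so that its spread within each group far exceeded the difference. Ndufa4 itself is not listed under its own symbol.

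Sdhd, which anchors complex II in the membrane and helps to bind ubiquinone, was at 83.7 to 138 RPKM in control (median 116) and at 75.6 to 152 RPKM in HLU (median 108). The control mean was 113 ± 19.5 RPKM and the HLU mean 114 ± 26.1 RPKM (SD, n = 8 each). This corresponds to a log2 fold change of 0.01 (SE 0.15). Uqcrh, the hinge protein of complex III that contacts cytochrome c1, had the narrowest range of the members. It ranged from 105 to 144 RPKM in control (median 112) and from 108 to 139 RPKM in HLU (median 124), only 1.37-fold between the highest and the lowest mouse. Its log2 fold change was 0.06 (SE 0.10; limma adjusted p = 0.880).

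All 6 tested members of complex IV had a fold change below 0, with a median of -0.13 on the log2 scale, beside 67.9% of all features below 0. After median-of-ratios scaling this was so for 3 of 6, with a median of -0.04, beside 52.5% of all features. The one member that passed the test was Cox6a1, the broadly expressed isoform of subunit VIa, a small subunit of the enzyme. Cox6a1 was at 39.1, 52.4, 52.7, 44.4, 70.1, 73.8, 92.5 and 74.2 RPKM in Control 1 to 8. In HLU 1 to 8 it was at 35.3, 56.6, 43.2, 32.1, 46.7, 48.8, 37.0 and 56.5 RPKM. All 8 HLU mice lay below the control median of 61.4 RPKM, but 4 control mice lay within the HLU range and the groups overlapped.

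Means of Cox6a1 were 62.4 ± 18.1 RPKM in control and 44.5 ± 9.34 RPKM in HLU (SD, n = 8 each), and the level fell by 0.46 on the log2 scale (SE 0.18), past the unadjusted limma threshold and with an adjusted p of 0.744. The exact permutation test over mice gave p = 0.028. Between 436 and 1717 reads per library stood behind these values, and 12.3% of the 50-base windows of its mRNA occur in a pseudogene. The unadjusted threshold was not reached with quantile normalization (log2 fold change -0.32, SE 0.16) or with values scaled to the RPKM outside mitochondrial features (-0.32, SE 0.16).

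Cox6a1 moved with the erythroid markers and against the mitochondrial mRNAs. With values centred within each group, its correlation with the summed erythroid markers over the 16 mice was r = 0.85, and it was 0.90 within the 11 other libraries and 0.80 within the 5 that stood apart. The summed erythroid markers were themselves lower in HLU, as given above, without adjustment over the marker lists. For the erythroid score that served as a covariate, the exact permutation test of HLU against control gave p = 0.066. With erythroid and neutrophil scores as covariates, the log2 fold change of Cox6a1 was -0.04 (SE 0.11; limma adjusted p = 0.860). Within the 11 other libraries it was -0.61 (SE 0.21; limma adjusted p = 0.411), past the unadjusted threshold, and within the 5 libraries that stood apart it was -0.03 (SE 0.27; limma adjusted p = 0.963). Whether erythroid content has a part in the change of Cox6a1 was not tested.

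**Figure D2:**
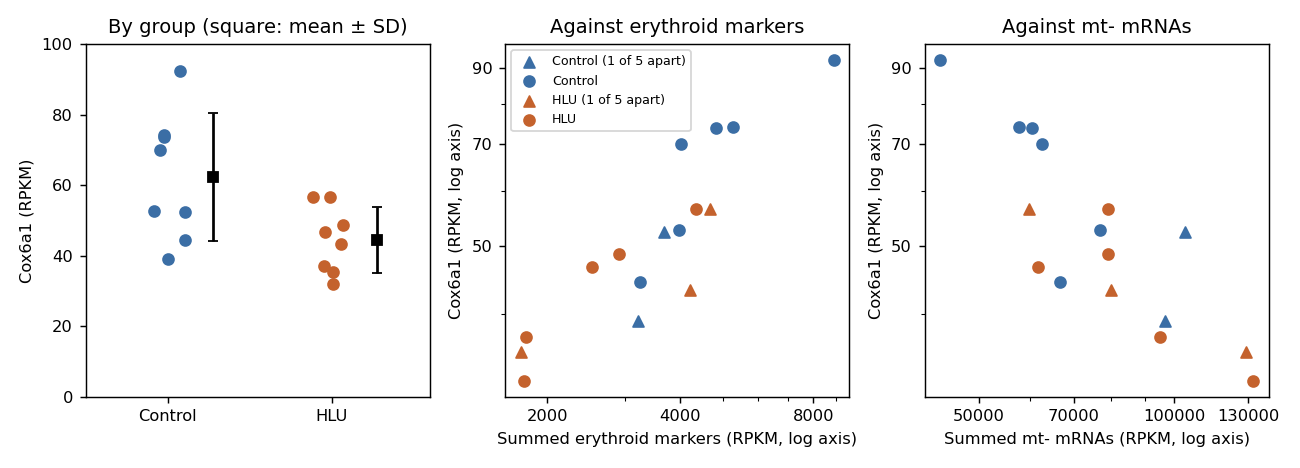
Left, Cox6a1 in RPKM in each mouse by group, with the mean and SD beside the points (62.4 ± 18.1 in control, 44.5 ± 9.34 in HLU). Middle and right, the same values on log axes against the summed RPKM of 13 erythroid markers and of 13 mitochondrial mRNAs, with triangles for the 5 libraries that stood apart; Cox6a1 was high where erythroid markers were high and mitochondrial mRNAs were low.

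Cox8a and Cox6b2 followed the same pattern across mice, and correlated with the summed erythroid markers at r = 0.76 and 0.71. These genes also followed the library GC slope, at r = 0.54 for Cox6a1, 0.76 for Cox8a and 0.80 for Cox6b2. The part of each measure was not tested. Cox8a, the broadly expressed isoform of subunit VIII, ranged from 98.2 to 237 RPKM in control (median 183) and from 77.9 to 190 RPKM in HLU (median 143). In all, 7 of 8 HLU mice lay below its control median, and the log2 fold change was -0.24 (SE 0.21; limma adjusted p = 0.767). Cox6b2, an isoform of subunit VIb best known from testis, ranged from 3.58 to 34.7 RPKM in control (median 14.8) and from 2.44 to 16.7 RPKM in HLU (median 12.2). Its 14.2-fold range over the mice was the widest of the tested members, and its log2 fold change of -0.21 had an SE of 0.50. With the erythroid and neutrophil scores as covariates both fold changes turned positive, to 0.20 for Cox8a and 1.09 for Cox6b2, and within the 5 libraries that stood apart they were 0.39 and 1.44. Among themselves, Cox6a1, Cox8a and Cox6b2 correlated at r = 0.85 to 0.89 within groups, beside a median of 0.47 over all 406 pairs of members. All of these r values are descriptions over 16 libraries that share depth and composition.

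The 250 bases before the start of these 3 genes are shown because the genes moved together across mice, and that of Uqcrh is shown as the member with the narrowest range over the mice. Sequences are from RefSeq (GRCm38.p6), which lists promoters for 27 of the 31 members, and are written 5′ to 3′ on the gene's own strand with motif matches in capitals. Motifs searched on both strands were GCGCATGCG (nuclear respiratory factor NRF1), CCGGAAG (GABP, also called NRF2) and AAGATGG (YY1), factors known to bind promoters of respiratory chain genes.
Cox6a1, chr5:115348959-115349208, minus strand: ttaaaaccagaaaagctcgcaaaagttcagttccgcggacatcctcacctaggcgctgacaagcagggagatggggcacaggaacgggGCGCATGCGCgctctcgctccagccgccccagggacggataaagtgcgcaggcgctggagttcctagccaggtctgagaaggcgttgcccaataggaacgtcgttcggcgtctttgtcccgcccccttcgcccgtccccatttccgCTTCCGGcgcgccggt
Cox8a, chr19:7217617-7217866, minus strand: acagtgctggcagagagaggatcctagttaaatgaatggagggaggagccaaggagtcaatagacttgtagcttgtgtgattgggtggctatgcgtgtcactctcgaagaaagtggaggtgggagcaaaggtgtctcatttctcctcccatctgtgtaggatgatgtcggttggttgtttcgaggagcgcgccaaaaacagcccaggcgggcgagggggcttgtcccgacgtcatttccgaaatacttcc
Cox6b2, chr7:4753095-4753344, minus strand: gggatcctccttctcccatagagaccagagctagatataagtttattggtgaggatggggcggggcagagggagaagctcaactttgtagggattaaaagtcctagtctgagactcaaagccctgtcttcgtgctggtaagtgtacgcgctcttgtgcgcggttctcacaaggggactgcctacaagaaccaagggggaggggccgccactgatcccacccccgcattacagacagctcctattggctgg
Uqcrh, chr4:116075071-116075320, minus strand: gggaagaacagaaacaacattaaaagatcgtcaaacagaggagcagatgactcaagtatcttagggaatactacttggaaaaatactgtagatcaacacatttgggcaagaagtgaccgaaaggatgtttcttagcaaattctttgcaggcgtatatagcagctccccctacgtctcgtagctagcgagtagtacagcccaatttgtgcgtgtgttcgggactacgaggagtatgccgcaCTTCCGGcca
In the Cox6a1 promoter the NRF1 motif, which reads nearly the same on both strands, was matched 162 and 161 bases before the start on opposite strands, with the matches overlapping, and the GABP motif was matched 16 bases before the start. Uqcrh held the GABP motif 10 bases before the start, while the windows of Cox8a and Cox6b2 held none of the 3 motifs. Over the members, the GABP motif was in 8 of 27 promoters (29.6%) beside 7.05% of 27025 gene promoters, the NRF1 motif was in 3 of 27 (11.1%) beside 1.49%, and the YY1 motif was in 0 of 27 beside 4.53%. Other members with the GABP motif were Atp5h, Atp5l, Cox6b1, Ndufb6, Ndufb7 and Sdhd, and the NRF1 motif was also in those of Atp5g2 and Atp5l. A match is a description of letters and not a measured binding site.

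Other complex IV members varied less. Cox6b1, the broadly expressed isoform of subunit VIb, had the highest deposited level of all members, with 231 to 507 RPKM in control (median 419) and 268 to 485 RPKM in HLU (median 404). Its fold change was -0.04 on the log2 scale (SE 0.17). Cox7a2, the broadly expressed isoform of subunit VIIa, ranged from 82.1 to 167 RPKM in control (median 142) and from 75.3 to 159 RPKM in HLU (median 120), with a log2 fold change of -0.03 (SE 0.18). Cox7a2l, which encodes a related protein, ranged from 46.6 to 65.2 RPKM in control (median 56.0) and from 40.2 to 62.9 RPKM in HLU (median 56.0), with a log2 fold change of -0.06 (SE 0.11). The groups overlapped for each of these genes.

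Cox7b2, a testis isoform, was above 0 only in HLU 2, at 0.112 RPKM, and Cox8c, another testis isoform, only in Control 2, at 0.595 RPKM. Both mean levels were below the filter. Muscle isoforms Cox6a2, Cox7a1 and Cox8b are not listed under their own symbols, so muscle and broadly expressed isoforms could not be set side by side.

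All 6 members of complex V had a fold change below 0 (median -0.10 on the log2 scale), and 3 of 6 did after median-of-ratios scaling (median -0.01), beside the same 67.9% and 52.5% of all features. Atp5g3 encodes subunit c, which forms the rotating ring of the enzyme, and had the highest deposited level of the complex. It ranged from 50.7 to 118 RPKM in control (median 97.3) and from 36.9 to 157 RPKM in HLU (median 103). Its low values all came from the 5 libraries that stood apart, and the log2 fold change was -0.13 (SE 0.29). Atp5h, a subunit of the stator stalk, had the smallest SE of the members. It ranged from 35.9 to 54.0 RPKM in control (median 42.6) and from 40.5 to 49.7 RPKM in HLU (median 42.0), a log2 fold change of -0.01 (SE 0.09).

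Atp5g2 encodes the same mature subunit c as Atp5g3 and had the lowest fold change of complex V. Levels were 1.57 to 3.95 RPKM in control (median 2.45) and 0.476 to 3.05 RPKM in HLU (median 2.01), from 6 to 40 reads per library. The log2 fold change was -0.45 (SE 0.29; limma p = 0.13, adjusted p = 0.747; exact permutation p = 0.15). Measured levels of Atp5g2 are uncertain, because its 441-base coding transcript has the same letters throughout as the pseudogenes Gm10175 and Gm10231 (GENCODE M21). To show this, 60 coding bases of Atp5g2 are set beside both copies and beside the matching stretch of Atp5g3, where capitals mark the 9 bases that differ from Atp5g2.
Atp5g2: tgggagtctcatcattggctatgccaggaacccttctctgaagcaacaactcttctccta
Gm10175: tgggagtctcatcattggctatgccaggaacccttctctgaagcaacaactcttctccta
Gm10231: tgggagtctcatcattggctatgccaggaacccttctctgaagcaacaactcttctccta
Atp5g3: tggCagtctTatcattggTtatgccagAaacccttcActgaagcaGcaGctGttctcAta
Reads from this stretch of Atp5g3 can be placed, whereas those of Atp5g2 match all 3 genes equally well. Over the whole mRNA, 87.4% of the 50-base windows of Atp5g2 occur in another gene. Gm10175 was itself listed at 0 to 2.34 RPKM (median 1.31), and Gm10231 was listed at 0 in every mouse.

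Similar copies affect other members. For Atp5l, which encodes subunit g of the membrane part, 84.8% of windows occur in another gene, and for Atp5l2 73.4% do. Atp5l was at 2.78 to 16.1 RPKM in control and 5.67 to 10.4 RPKM in HLU, and Atp5l2 at 0.218 to 1.78 and 0.183 to 1.49 RPKM. Shared windows made up 47.9% of Atp5h, 34.1% of Ndufb6, 31.1% of Ndufs5 and less than 20% of each other tested member, and 14 of the 29 shared none. In Ndufb6 the shared bases are those of Smim27, a gene that overlaps its exons from the opposite strand over 39.0% of their length. Library kit and counting were not stated to keep strand, so reads of Ndufb6 and Smim27 cannot be told apart there.

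The gene length used for RPKM also set the apparent order of the members. This length could be recovered from the values, and for 11 of the 29 it was at least 2 times the length of the principal GENCODE M21 mRNA. Ndufb7, a complex I subunit on the intermembrane side, had been divided by 4864 bases against an mRNA of 623 bases, and Ndufa7 by 3275 against 528 bases. On the deposited scale the highest mean levels were Cox6b1 (392 RPKM), Cox8a (157 RPKM) and Ndufa6 (150 RPKM). Per kilobase of principal mRNA they were Uqcrh (474), Atp5g3 (368) and Cox6b1 (321), and Ndufb7 moved from 5.35 to 41.8. Fold changes between mice do not depend on this length.

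**Figure D3:**
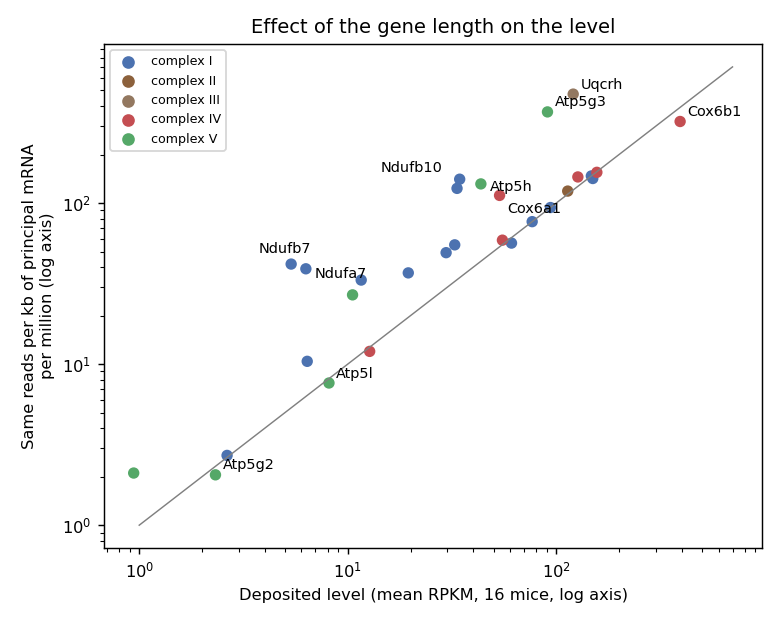
Mean level of the 29 tested members over 16 mice, as deposited (x axis, RPKM, log axis) and with the same reads divided by the length of the principal mRNA (y axis, log axis), coloured by complex. Points far above the line of equal values, such as Ndufb7 (5.35 against 41.8) and Uqcrh (121 against 474), were divided by a length much longer than their mRNA.

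Values varied widely between individual mice. Between the highest and the lowest mouse, 13 of the 29 members varied by more than 4-fold and 7 by less than 2-fold. The widest ranges after Cox6b2 were those of Atp5d, a subunit of the central stalk of complex V, at 1.78 (Control 4) to 22.2 RPKM (Control 5), and of Atp5l2, Ndufb7 and Atp5g2. Atp5d and Ndufb7 followed the library's GC slope closely, with within-group r values of 0.97 and 0.98 over 16 libraries. Ndufa2, Ndufa3, Ndufa7 and Ndufs6, all complex I subunits and grouped after their values were seen, formed a tight block (r = 0.93 to 0.98 among them) and correlated with the GC slope at 0.78 to 0.91.

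Over all 29 members the correlation with the GC slope had a median of 0.55 and was above 0 for 23. The share of all features above 0 was not computed for this slope. Members with a higher mRNA GC content followed the slope more closely, with r = 0.43 and rho = 0.44 across the 29 genes, which are not independent replicates. Cox6b1 followed it at 0.86 with an mRNA of 51.0% GC, so GC content of the mRNA did not order the members fully. HLU 4, Control 4 and Control 1, with the lowest slopes, had the lowest values of Ndufa3, Cox7a2 and Cox8a. With the GC slope as a covariate, Cox6a1 remained the one member past the unadjusted test (log2 fold change -0.46, limma adjusted p = 0.415).

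**Figure D4:**
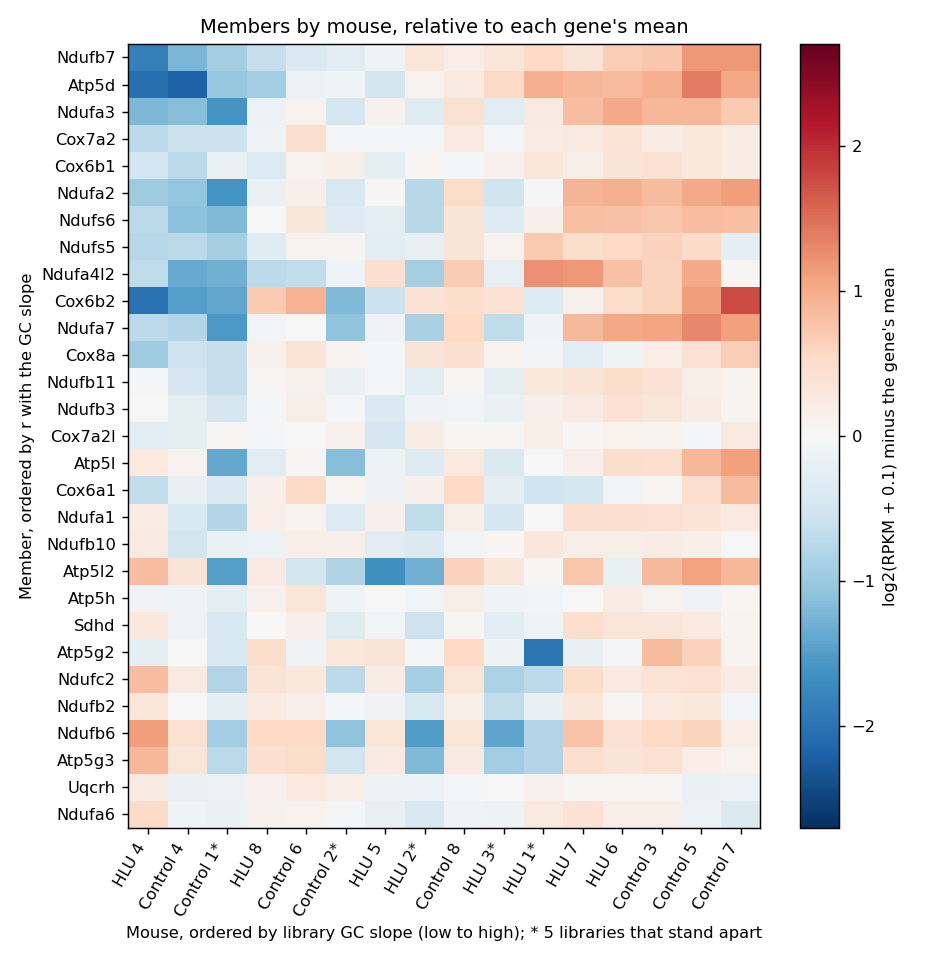
Each row is a tested member and each column a mouse, ordered by the GC slope of its library from HLU 4 (-0.62) to Control 7 (0.41), and colour gives log2(RPKM + 0.1) minus the gene's mean over the 16 mice. Ndufb7, Atp5d and Ndufa3 at the top run from low to high along this order, and Ndufb6, Ndufc2 and Atp5g3 near the bottom are low in the 5 starred libraries.

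A second pattern separated libraries into sets rather than along a scale. Atp5g3, Ndufb6, Ndufc2 and Sdhd were each lower in all of the 5 libraries that stood apart than in any of the other 11, which is 4 of 29 members, beside 1.59% of all features. No member was higher in all 5. Ndufb6, a membrane-arm subunit of complex I, was at 9.01 to 14.9 RPKM in the 5 and at 29.3 to 56.5 RPKM in the 11. Ndufc2, another membrane-arm subunit, was at 16.4 to 18.7 and at 35.0 to 54.6 RPKM. For Atp5g3 the ranges were 36.9 to 59.4 and 89.6 to 157 RPKM, and for Sdhd they were 75.6 to 102 and 105 to 152 RPKM. The sets hold 2 control and 3 HLU libraries against 6 and 5, and with the set as a covariate the log2 fold change of the members had a median of 0.02, with 1 of 29 members lower (Cox6a1, -0.43, limma adjusted p = 0.483) beside 7.06% of all features. What separates the libraries was not tested.

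**Figure D5:**
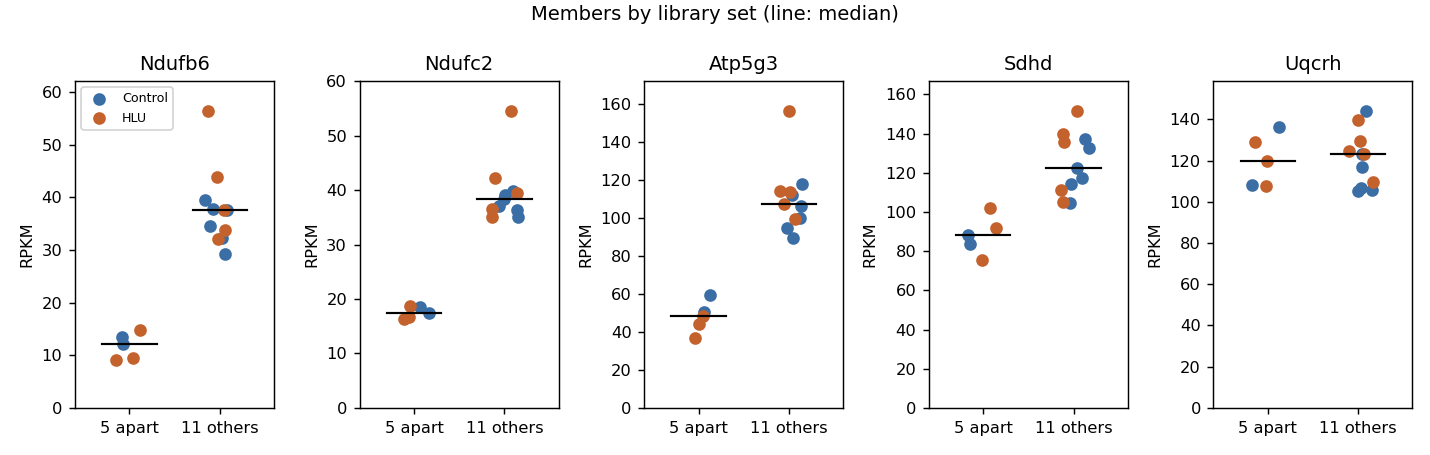
RPKM of Ndufb6, Ndufc2, Atp5g3 and Sdhd in each mouse, with the 5 libraries that stood apart beside the other 11 and lines at the medians, and Uqcrh for comparison. The first 4 genes do not overlap between the sets (Ndufb6 9.01 to 14.9 against 29.3 to 56.5), whereas Uqcrh does, and control and HLU mice are found in both sets.

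Members and muscle content were then set side by side, since cortical bone can carry attached muscle, a tissue rich in mitochondria. With the summed RPKM of Myh7, Tnnt1 and Tnni1, 28 of 29 members had a within-group correlation above 0 (median r = 0.44). With the sum of 10 listed muscle genes, 26 of 29 were above 0 (median r = 0.53). For that sum, 29 of 29 were above 0 (median r = 0.66) with each library scaled to its RPKM outside mitochondrial features. The share of all features above 0 was not computed, so these counts are not shown to be particular to the members. Highest with Myh7, Tnnt1 and Tnni1 were Sdhd (r = 0.70, rho = 0.72), Ndufa1 (0.61, 0.59), Ndufb11 (0.59, 0.58) and Ndufa2 (0.58, 0.54). Atp5g3 ranked next (0.55, 0.50). Values of Sdhd and Atp5g3 fall into the separate library sets described above. The sum of 10 listed muscle genes includes Casq2, Klhl41 and Csrp3. Over all 16 libraries its r was 0.85 with Sdhd, 0.76 with Ndufa1, 0.72 with Ndufb11, 0.58 with Ndufa2 and 0.69 with Atp5g3. Within the 11 other libraries these r were lower, at 0.69, 0.37, 0.51, 0.26 and 0.22 in the same order.

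The isoform members were tested one by one, as 18 relations of 9 genes with muscle (the sum of Myh7, Tnnt1 and Tnni1) and with mitochondrial mRNAs. For muscle none passed 0.05 after Benjamini-Hochberg adjustment. Atp5g3 gave the highest r at 0.55 (permutation p = 0.044, adjusted p = 0.20) with rho = 0.50 (permutation p = 0.068, adjusted p = 0.24), and its r was -0.0025 within the 11 other libraries. Cox7a2 gave r = 0.44 (permutation p = 0.10, adjusted p = 0.26) and rho = 0.60 (permutation p = 0.019, adjusted p = 0.085), and Ndufa4l2 gave r = 0.47 (permutation p = 0.074, adjusted p = 0.23) and rho = 0.44 (permutation p = 0.096, adjusted p = 0.29). With the 2 mice of most extreme muscle level left out, r was 0.29 for Atp5g3, 0.27 for Cox7a2 and 0.23 for Ndufa4l2. Over all 16 mice Cox6a1 gave r = 0.03 and Cox8a 0.02, and both gave -0.17 with those 2 mice left out. With muscle as a covariate, Cox6a1 was still the one member past the unadjusted test (log2 fold change -0.46, limma adjusted p = 0.459). The members were correlated with other measures too, and the part of each was not tested. Over the members, correlations with proliferation markers had a median of -0.56 and those with neutrophil markers of -0.57.

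Of the 13 mRNAs of the mitochondrial genome, 6 averaged under 100 RPKM. By the unadjusted rule 0 of the 13 were called in either direction. A fold change above 0 was seen in 11 of 13 and one below 0 in 2, with a median of 0.20 on the log2 scale. Over all features 67.9% were below 0 and the median was -0.10. The sum of all 13 ranged from 43592 to 103660 RPKM in control and from 59712 to 132252 RPKM in HLU (log2 difference 0.33, exact permutation p = 0.14). On the deposited scale most members ran opposite to this sum, with a correlation above 0 for 7 of 29 (median r = -0.14), whereas 19 of 29 were above 0 (median r = 0.25) with each library scaled to its RPKM outside mitochondrial features. The share of all features above 0 was not computed on either scale. On the deposited scale Ndufa6 ran with the sum (r = 0.69), as did Uqcrh (0.52) and Ndufb10 (0.48). Cox6a1, Cox6b2 and Cox8a ran against it.

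For Cox6a1 the correlation with the mitochondrial mRNAs was r = -0.83 and rho = -0.87 (permutation p = 0.0001 for each, adjusted p = 0.0018 for each). It was -0.82 with the 2 most extreme mice left out, -0.82 in control, -0.86 in HLU and -0.78 within the 11 other libraries. Cox8a gave r = -0.68 (permutation p = 0.0047, adjusted p = 0.028) and rho = -0.85 (permutation p = 0.0002, adjusted p = 0.0021), with -0.73 within the 11 libraries. Cox6b2 gave r = -0.68 (permutation p = 0.0044, adjusted p = 0.028) and rho = -0.66 (permutation p = 0.0099, adjusted p = 0.059), with -0.56 within the 11 libraries and -0.52 with the 2 most extreme mice left out. Since RPKM share 1 total, abundant mitochondrial reads lower the value of every other gene. With the scaling to RPKM outside these features, r was -0.56 for Cox6a1, -0.41 for Cox8a and -0.49 for Cox6b2, and it was 0.82 for Ndufa6 and 0.79 for Uqcrh.

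Genes that build and regulate the chain were counted by the same rule. Of 35 listed assembly factors, all tested, 2 were lower and 0 were higher without adjustment, beside 4.76% and 1.11% of all features, with a median log2 fold change of -0.08. These were Ndufaf2, an assembly factor of complex I (log2 fold change -0.33, SE 0.11, limma adjusted p = 0.744), and Cox17, the copper chaperone of complex IV (-0.34, SE 0.12, limma adjusted p = 0.744). Neither kept a change of 1.2-fold after median-of-ratios scaling (-0.24 for both). There Atpaf1, an assembly factor of complex V, was the 1 of 35 higher instead (log2 fold change 0.34), beside 2.24% of all features. Of 14 tested regulators of mitochondrial gene expression, 0 were called, and Ppargc1a, the coactivator that drives mitochondrial biogenesis, was at 1.14 ± 0.433 RPKM in control and 1.65 ± 1.01 RPKM in HLU (SD, n = 8 each; log2 fold change 0.35, SE 0.33). None of the 4 listed subunits and carriers outside the pattern and none of the 3 listed TCA cycle genes was called, and Cox4i1, a core nuclear subunit of complex IV, had a log2 fold change of 0.00 (SE 0.27).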

How the data were processed

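Cortical bone of 8 control and 8 HLU mice was sequenced, 1 library a mouse. The authors prepared TruSeq v2 libraries, aligned reads with TopHat2 (mm9, per the submitters' processing notes), compared groups with DESeq2 and deposited RPKM for each mouse. Counting tool, annotation and gene lengths are not given in the sources used here. The deposited RPKM are no counts, so limma 3.58.1 (R 4.3.3, variance trend, equal weights) was run on log2(RPKM + 0.1) over all 16973 features averaging 0.5 RPKM or more, with Benjamini-Hochberg adjustment over all of them. A change of at least 1.2-fold was called at p under 0.05 without adjustment, or at adjusted p under 0.1. Single genes were also tested by exact permutation over 12870 splits of the mice (smallest p 0.000155).

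The divisor of each library and the gene lengths were recovered from the RPKM steps, and whole reads were found for 16973 of 16973 features kept. These reads gave depth and entered an alternative by the voom method of limma. Limma, voom and the recovery of reads were tested on simulated data. There limma and voom found only part of the 2-fold changes at the adjusted threshold, and the reads of most but not all genes were recovered. Reads are not independent molecules, so the floor covers counting error only. GENCODE M21 and RefSeq (GRCm38.p6) gave GC content, shared windows of 50 bases, mRNA lengths and promoters, not gene positions. Correlations used log2 values centred within groups and 100000 permutations within groups (Python 3.11.15, numpy 2.4.6, scipy 1.17.1, pandas 2.3.3, matplotlib 3.10.9). Library GC slopes are regressions over 11206 features averaging 2 RPKM or more.

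Members and gene lists were chosen with earlier results of these data known. Genes named were the 2 highest and the highest and lowest fold change in each complex, isoform families, members past the unadjusted test and the 5 most like muscle. Ndufb6, Ndufb7, Ndufb10, Ndufc2, Ndufa3, Ndufs5, Ndufs6, Atp5d, Atp5l and Atp5l2 were named after their values were seen, as was the list of 10 muscle genes. In all 34 alternatives were tried, 16 of them leaving out a mouse.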

Additional observations from a re-analysis of the deposited data

Results flagged for a closer look

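Values of the 29 tested members were searched in each group for a mouse far from the other 7, in 58 groups of 8 mice in all. A group was listed where the gap to the nearest mouse, on the log2 scale, exceeded the 95% critical share of the group's range (Dixon's test). Chance gives this in about 1 of 20 groups, and 2 of the 58 groups were listed. Atp5g2 in HLU 1 was at 0.476 RPKM, below the other HLU mice at 1.80 to 3.05 RPKM, on a gene with 6 to 40 reads per library. Cox7a2 in HLU 4 was at 75.3 RPKM, below the other HLU mice at 116 to 159 RPKM, and HLU 4 had the lowest GC slope of all libraries (-0.62).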

How the results depend on the processing

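Cox6a1 had an unadjusted p under 0.05 in 29 of 34 alternatives, with adjusted p between 0.386 and 0.976 and a log2 fold change between -0.61 and -0.03. The count of members lower in HLU was 1 in the main comparison. It was 0 with quantile normalization, with scaling to the RPKM outside mitochondrial features, with erythroid and neutrophil scores as covariates, with a proliferation score as covariate and within the 5 libraries that stood apart. Members higher in HLU, 0 in the main comparison, were 7 with the erythroid and neutrophil scores (5.2% of all features higher) and 4 within the 5 libraries (6.99% of all features higher). Members with a fold change below 0 numbered 19 of 29 in the main comparison, beside 67.9% of all features. With the erythroid and neutrophil scores they numbered 4 (15 signs turned), beside 53.6% of all features. Within the 5 libraries they numbered 7, beside 50.1% of all features. Those that turned and passed the unadjusted test were, with the scores, Cox6b2 (1.09), Ndufa2 (0.61), Ndufa7 (0.62) and Atp5l (0.49), and within the 5 libraries Cox6b2 (1.44), Ndufb7 (1.02), Atp5d (1.097) and Atp5l (1.02), where only 2 control and 3 HLU mice enter. The cause was not tested. The alternatives within library sets, with the library split, the GC slope, proliferation or 10 muscle genes as covariates, and without the 2 smallest libraries (Control 2 and HLU 5), were chosen after seeing the data. No member passed the adjusted threshold in any alternative.

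Leaving out 1 mouse at a time gave 1 lower and 0 higher members each time, and a median log2 fold change of the members from -0.17 to 0.02. Over the other alternatives this median ran from -0.27 to 0.21. Scaling to the RPKM outside mitochondrial features moved the median of all features from -0.10 to 0.03 and that of the members to 0.08. Replicate numbers are shared by both groups. Their deviations correlated at -0.17 to 0.51, and only number 4 (0.51) matched its own number best. Control 4 and HLU 4 also had the lowest GC slopes (-0.51 and -0.62). The 5 libraries that stood apart carry the low numbers of both groups (Control 1 and 2, HLU 1 to 3). What the numbers stand for is not stated and was not tested. With the replicate block 2 of 29 members were lower, beside 4.95% of all features: Cox6a1 (-0.46, limma adjusted p = 0.725) and Atp5g2 (-0.45, limma adjusted p = 0.725). Depth limits Atp5g2, Atp5l and Atp5l2 most, with as few as 6, 12 and 1 reads in a library.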

Other observations

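The deposited values of the mitochondrial mRNAs fell into separate ranges, and whether these follow transcript abundance or the placing of reads was not tested. The lower range includes mt-Atp6, which set the 5 libraries apart. mt-Nd1, mt-Nd2, mt-Nd4, mt-Nd5, mt-Nd6, mt-Cytb and mt-Co1 had mean levels of 5124 to 19663 RPKM over the 16 mice, and mt-Nd3, mt-Nd4l, mt-Co2, mt-Co3, mt-Atp6 and mt-Atp8 had mean levels of 8.37 to 60.6 RPKM. The 5 libraries that stood apart had 270 features lower and 92 higher than in every other library. Of the 251 lower features with a gene type in GENCODE M21, 21.9% were pseudogenes, beside 6.65% of the 15987 kept features with a gene type.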
